A study of Homo sapiens with 4 samples.

Results

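The respiratory chain passes electrons from nutrients to oxygen and uses the energy released to make ATP in the inner mitochondrial membrane. Nuclear genes encode most of its subunits. A set of 82 subunit genes, of 16634 genes with a value, was examined in A2780/SRSF3si2 cells with and without doxycycline (Doxy). Genes were chosen by name. The array annotation lists them under a symbol, often an older one, that starts with NDUFA, NDUFB, NDUFC, NDUFS, NDUFV, SDH, UQCR, COX4 to COX8 or ATP5, and each was read by at least 2 probe sets listed for that gene alone. Current symbols are used here. Pseudogenes, assembly factors and other genes with such a symbol were left out. The rule itself holds no measured value. Complex I contributed 36 genes, complex II 4, complex III 7, complex IV 19 and complex V 16.

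A2780/SRSF3si2 is an ovarian cancer subline of A2780 in which Doxy induces an siRNA against the splicing factor SRSF3. Cells were grown for 3 days with 0.1 μg/ml Doxy (Doxy, n = 2 arrays) or without it (No Doxy, n = 2 arrays), and both groups carry the inducible construct. RNA was read on Affymetrix human exon arrays, in which several probe sets read each gene. A Doxy-treated line with a control siRNA was not analysed here, so the effects of Doxy and of SRSF3 knockdown cannot be told apart. Whether the 2 arrays of a group stem from separate cultures is not stated, and the p-values speak only of the spread among these 4 arrays. The number of arrays limits the precision, and an exact two-sided permutation test of 2 against 2 arrays cannot go below p = 0.333.

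Complex I takes electrons from NADH, complex II takes them from succinate as part of the tricarboxylic acid cycle, and both pass them to ubiquinone. Complex III hands them on to cytochrome c, complex IV to oxygen, and the proton gradient built by complexes I, III and IV drives ATP synthesis by complex V. Promoters of many nuclear genes of the chain are known targets of the transcription factors NRF1, GABP and YY1. Expression is given as the gene value, the mean log2 signal of a gene's probe sets on an array. A difference is the Doxy mean minus the No Doxy mean on that scale. A gene is called when its Benjamini-Hochberg adjusted p over all 16634 genes is under 0.05 in limma.

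SRSF3 itself had values of 8.50 and 8.33 on the No Doxy arrays and 7.84 and 7.97 on the Doxy arrays. The Doxy arrays were the lower ones, but the difference of -0.51 (standard error 0.18, limma adjusted p = 0.129) was not called. The median gene value was 5.08 and 4.92 on the No Doxy arrays and 5.00 and 5.16 on the Doxy arrays. Arrays of a group correlated more closely across genes (r = 0.987 and 0.988) than arrays of different groups (0.969 to 0.972). Of 7 measured epithelial and ovarian tumour markers, EPCAM (difference 2.10) and CDH1 (0.93) were called higher with Doxy and 0 were called lower, while KRT19 (-0.81) and KRT8 (-0.38) were lower on both Doxy arrays and not called. The median value of the list on an array ran from 4.34 to 4.89 without Doxy and from 4.82 to 4.83 with it. The part of these markers in the results was not tested. Of 4 mesenchymal, 2 leukocyte and 3 endothelial markers 0 were called by limma. Among them VIM (0.73) and COL3A1 (-0.65), both mesenchymal, had an unadjusted p under 0.05, in opposite directions, and the leukocyte markers PTPRC (-0.20) and CD3E (0.42) also differed in sign.

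Subunit genes were mostly higher on the Doxy arrays. Of the 82 genes, 10 (12.2%) were called higher, where 5.67% of all genes were, and 0 were called lower, where 1.70% of all genes were. At an unadjusted p under 0.05 in limma, 38 subunit genes were higher and 1, NDUFB10, was lower. Of all 16634 genes, 2741 were higher and 1108 lower at that p. The smaller counts given below at that p are to be read beside these. The median difference of the subunits was 0.44, against 0.03 over all genes, and single subunit genes ran from -0.45 to 1.48. Both Doxy arrays lay above both No Doxy arrays for 49 of the 82 genes (59.8%), against 30.5% of all genes. They lay below for 5, where 21.8% of all genes did, and the groups overlapped for the other 28. By array the median subunit value was 6.95 and 6.83 without Doxy and 7.31 and 7.70 with it. Doxy replicate 2 read higher than Doxy replicate 1 for 67 subunit genes (81.7%), against 61.7% of all genes. In RNA from whole cultures, a change in the mix of cells and a change of RNA per cell cannot be told apart.

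Most subunit genes give a strong signal, and genes with strong signals were more often higher with Doxy on these arrays. Of the 82 genes, 71 were among the 8317 genes with the brighter signals by their mean over the 4 arrays, a split at the median that was chosen after the values were seen. Among those 8317, 9.92% were called higher, and 10 of the 71 subunit genes (14.1%) were. Both Doxy arrays were above in 45.4% of the brighter genes and in 45 of these 71 (63.4%), and the median difference was 0.19 for the brighter genes and 0.46 for the subunits among them. At an unadjusted p under 0.05 in limma, 2271 of the 8317 brighter genes and 35 of these 71 were higher. Doxy replicate 2 read higher than Doxy replicate 1 for 77.1% of the brighter genes and for 90.1% of these 71. The other 11 subunit genes, among the dimmer genes, had a median difference of 0.03 and 0 calls in limma, with 3 at an unadjusted p under 0.05. The part of signal strength in the subunits' differences was not tested further.

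**Figure D1:**
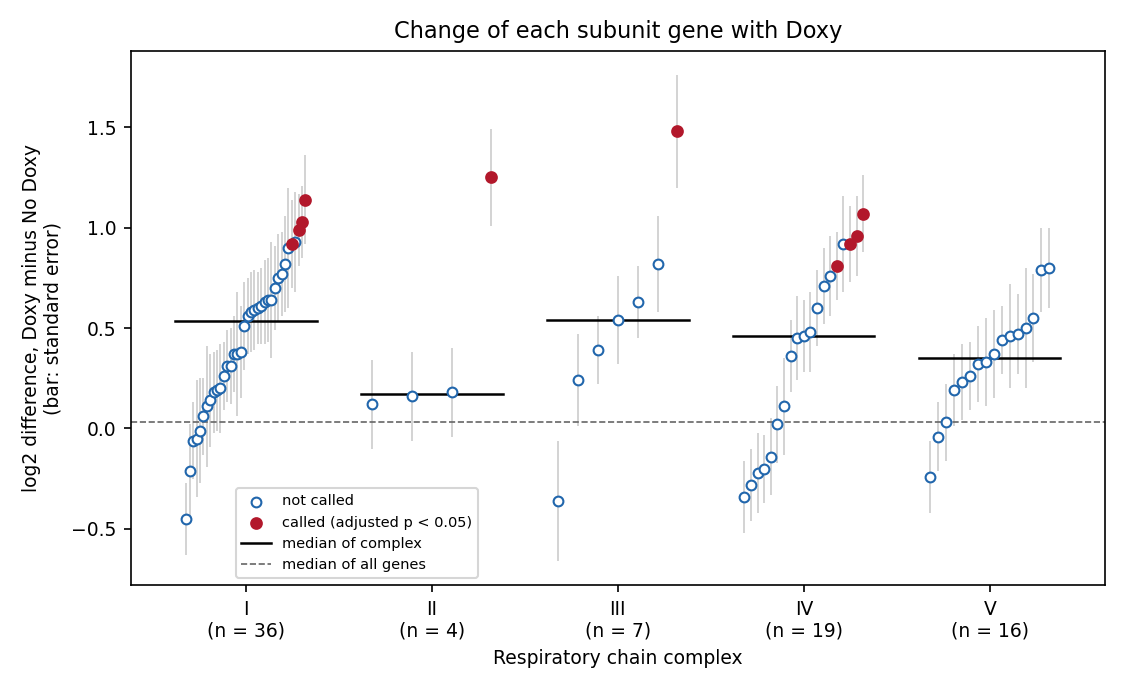
The log2 difference (Doxy minus No Doxy) of each of the 82 subunit genes is plotted by complex, in order of size, with its standard error from limma. Filled points mark the 10 called genes, which lie between 0.81 and 1.48, and black lines mark the complex medians, from 0.17 in complex II to 0.54 in complexes I and III.

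UQCR11, SDHB and NDUFAB1 had the largest called differences, and their promoters are shown with the letters of 3 motifs that were searched on both strands. The motifs are GCGC and TGCGC with 1 base of any kind between them for NRF1, CCGGAAG for the ETS site that GABP binds and ATGGCGG for YY1. Each window, from RefSeq on GRCh38.p14, runs from 250 bases before the gene's start to 50 bases after it, reads 5′ to 3′ on the gene's strand, and has motif letters in capitals. UQCR11 lies at chr19:1605413-1605712, SDHB at chr1:17053983-17054282 and NDUFAB1 at chr16:23596267-23596566, all on the minus strand.
UQCR11: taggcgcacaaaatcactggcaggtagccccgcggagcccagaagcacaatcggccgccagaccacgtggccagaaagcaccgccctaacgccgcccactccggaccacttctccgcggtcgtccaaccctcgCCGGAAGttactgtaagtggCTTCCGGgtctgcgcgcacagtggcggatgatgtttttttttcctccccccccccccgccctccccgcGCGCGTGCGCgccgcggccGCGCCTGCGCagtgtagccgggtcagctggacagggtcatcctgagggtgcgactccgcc
SDHB: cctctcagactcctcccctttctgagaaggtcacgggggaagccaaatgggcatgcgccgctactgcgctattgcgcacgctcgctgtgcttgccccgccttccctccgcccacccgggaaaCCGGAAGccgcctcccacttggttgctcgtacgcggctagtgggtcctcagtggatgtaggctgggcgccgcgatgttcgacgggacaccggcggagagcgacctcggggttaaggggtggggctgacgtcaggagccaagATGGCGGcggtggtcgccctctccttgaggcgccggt
NDUFAB1: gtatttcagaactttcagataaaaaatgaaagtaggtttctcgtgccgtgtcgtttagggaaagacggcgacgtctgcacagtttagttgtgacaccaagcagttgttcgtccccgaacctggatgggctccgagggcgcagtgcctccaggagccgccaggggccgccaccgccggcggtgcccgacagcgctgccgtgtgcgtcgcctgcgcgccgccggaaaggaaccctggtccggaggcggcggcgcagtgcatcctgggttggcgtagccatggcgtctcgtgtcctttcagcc
The UQCR11 window held 2 ETS and 2 NRF1 matches, which do not overlap each other, and the SDHB window held 1 ETS and 1 YY1 match. NDUFAB1 held none of these letters. A match describes the letters only and is no evidence of binding. The YY1 letters begin with ATG, the letters of a start codon. The YY1 matches of SDHB and COX6A1 begin after the gene's start, at bases 14 and 15. Whether such matches lie in coding sequence was not analysed.

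Promoter windows were at hand for 67 of the 82 subunit genes. The NRF1 letters were found in 15 of them (22.4%), against 9.26% of the 13214 windows of measured genes and 6.28% of all 27305 windows. ETS letters were found in 19 (28.4%, against 15.0% and 10.7%), and YY1 letters in 18 (26.9%, against 8.13% and 5.72%). At least 1 of the 3 was present in 40 subunit windows (59.7%), against 27.6% of measured genes and 19.5% of all windows. The YY1 letters lay in 13 of 32 windows of complex I, in 2 of 3 of complex II, in 1 of 6 of complex III, in 1 of 15 of complex IV and in 1 of 11 of complex V. Of the 9 called genes with a window, 5 held the ETS letters, 2 those of YY1 and 1 those of NRF1.

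Complex I had 22 of 36 genes above in both Doxy arrays, 4 of them called, with a median difference of 0.54. All 4 called genes were assigned here to the supernumerary subunits of the membrane arm, the part that pumps protons. Each gene was placed in 1 arm only. NDUFAB1, the mitochondrial acyl carrier protein, read 6.92 and 6.52 without Doxy and 7.68 and 8.05 with Doxy. Its difference was 1.14 (standard error 0.22, limma adjusted p = 0.0250), a 2.21-fold rise, and the Doxy arrays stood clear of the No Doxy arrays. NDUFA1, a small X-linked subunit, read 6.50 and 6.58 without Doxy and 7.70 and 7.43 with it. The No Doxy arrays were close together, and the difference was 1.03 (standard error 0.18, limma adjusted p = 0.0204). NDUFB5 rose from 9.09 and 8.99 to 9.94 and 10.12, a difference of 0.99 (standard error 0.18, limma adjusted p = 0.0204). NDUFC1 went from 7.51 and 7.37 to 8.07 and 8.63, with Doxy replicate 2 the highest, and its adjusted p of 0.0479 in limma was the nearest to the threshold among the called genes (difference 0.92). NDUFC1 fell short of the test and to 0.50 (limma adjusted p = 0.382) when the median of its probe sets was taken, and its dimmest probe set had the largest difference, 1.99.

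The 6 core subunits of complex I that were measured belong to the arm that takes electrons from NADH to ubiquinone. Their differences ran from 0.19 to 0.75 with a median of 0.62, and 4 of 6 were above in both Doxy arrays, but 0 were called by limma and 3 had an unadjusted p under 0.05. NDUFS3 (0.75, adjusted p = 0.0825) and NDUFS1 (0.70, adjusted p = 0.0848) were the largest. The 9 supernumerary subunits of the matrix arm had a median of 0.37 and 0 calls, with 3 at an unadjusted p under 0.05, and NDUFS4 had the largest difference there, 0.82 (adjusted p = 0.0870 in limma). The 21 assigned to the membrane arm had a median of 0.56, and 14 were above in both Doxy arrays. NDUFB10, a membrane arm subunit, lay lower with Doxy and read 7.04 and 7.17 without Doxy against 6.54 and 6.77 with it, a difference of -0.45 (standard error 0.18). It was the lowest of all 82 genes and was not called (adjusted p = 0.190 in limma). NDUFB3 (0.93) and NDUFB6 (0.90), which also lie in the membrane arm and were among the dimmer genes, had adjusted p of 0.0643 and 0.115 in limma.

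In complex II, succinate dehydrogenase, 1 gene of 4 was called. SDHB, the iron-sulfur subunit, read 6.08 and 6.06 without Doxy and 6.97 and 7.67 with Doxy. The No Doxy arrays were nearly equal and Doxy replicate 2 was the highest, and the difference was 1.25 (standard error 0.24, limma adjusted p = 0.0260), a 2.39-fold rise. Of its 10 probe sets, 9 were above in both Doxy arrays. SDHA, the flavoprotein that oxidizes succinate, read 7.95 and 7.70 without Doxy and 7.74 and 8.24 with it. SDHC, one of the membrane anchors, read 8.82 and 8.96 against 8.80 and 9.34, and SDHD, the other anchor, 6.70 and 6.44 against 6.45 and 6.93. For all 3 the groups overlapped, and differences of 0.16, 0.18 and 0.12 (each with standard error 0.22) were not called. Whether SDHB differed from the other 3 was not tested. Without Doxy replicate 2 the median of the complex was -0.09, against 0.17 with all arrays.

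Complex III held the largest difference of the set. UQCR11, a small subunit of the complex, read 5.64 and 4.75 without Doxy and 6.58 and 6.76 with Doxy. The No Doxy arrays were farther apart than the Doxy arrays, and both lay below them, with a difference of 1.48 (standard error 0.28, limma adjusted p = 0.0251), a 2.79-fold rise. Without the dimmest probe sets UQCR11 was not called for expression. The core proteins UQCRC1 (0.54) and UQCRC2 (0.63) and the Rieske iron-sulfur protein UQCRFS1 (0.82) were above in both Doxy arrays, with adjusted p of 0.186, 0.0820 and 0.0801 in limma, not called. UQCRFS1 read 6.52 and 5.96 without Doxy and 6.89 and 7.23 with it, and UQCRC2 9.78 and 9.69 against 10.23 and 10.49. The small subunit UQCRQ had a difference of -0.36 that rested on 1 array: it read 8.21 and 8.17 without Doxy, 7.34 on Doxy replicate 1 and 8.32 on Doxy replicate 2, and without Doxy replicate 1 its difference was 0.13. UQCRB (0.39) and UQCRH (0.24) were not called.

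**Figure D2:**
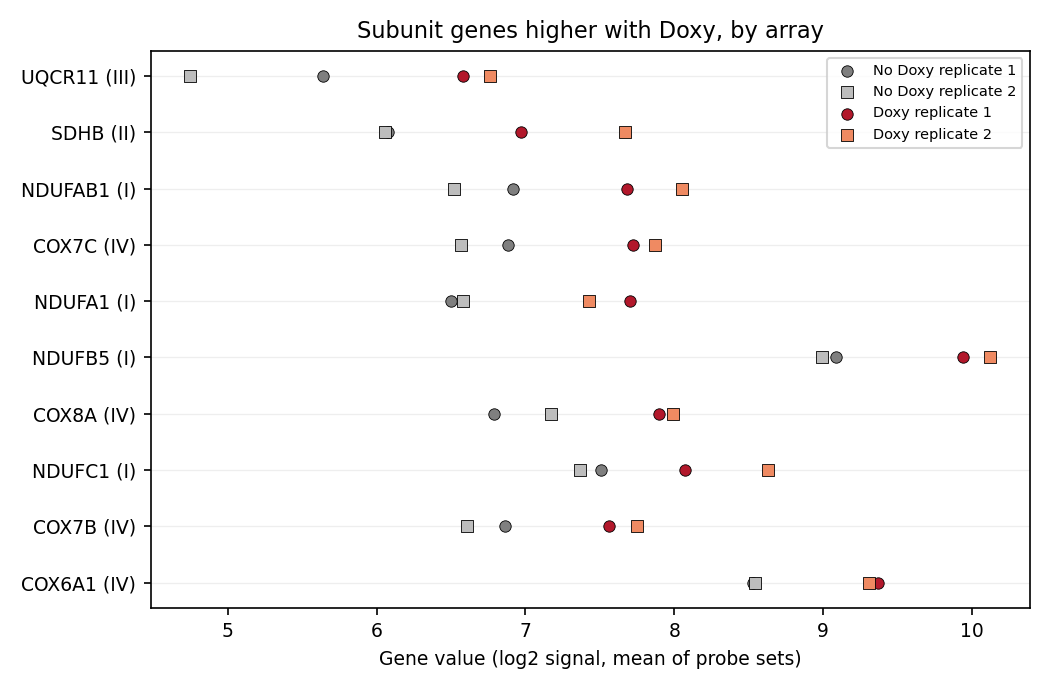
Gene values (mean log2 signal of the probe sets) of the 10 called subunit genes are plotted for each of the 4 arrays, with the complex in brackets. In every gene both Doxy points lie to the right of both No Doxy points, and the No Doxy arrays of UQCR11 (4.75 and 5.64) are the farthest apart.

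The genes of complex IV, cytochrome c oxidase, were grouped by kind of subunit. Those grouped as widely expressed were above in both Doxy arrays for 11 of 11 genes, with 4 called, differences from 0.36 to 1.07 and a median of 0.76. These 11 were also above 0 under every alternative processing tried, centred and quantile normalized arrays included. COX7A2L, which was counted with the paralogues, also gave a strong signal (10.25 to 10.74), and its difference was -0.22, so the contrast depends on this grouping. COX7C, a small subunit in the membrane, read 6.88 and 6.57 without Doxy and 7.72 and 7.87 with it (difference 1.07, standard error 0.19, limma adjusted p = 0.0204). COX8A, a small subunit with a single membrane helix, went from 6.79 and 7.17 to 7.90 and 7.99 (0.96, standard error 0.20, limma adjusted p = 0.0294). In both genes the Doxy arrays were close together and stood clear of the No Doxy arrays. X-linked COX7B went from 6.86 and 6.61 to 7.56 and 7.75 (0.92, limma adjusted p = 0.0289). COX6A1 read 8.53 and 8.54 against 9.37 and 9.31 (0.81, standard error 0.17, limma adjusted p = 0.0319), the tightest gene values of the called genes in both groups. Its probe sets agreed less without Doxy than this mean. Probe set 3434368 read 3.18 and 5.64, while every other probe set of the gene read lower on No Doxy replicate 2.

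Just outside the threshold lay ATP5MF of complex V (0.80, adjusted p = 0.0523 in limma) and 2 further complex IV genes. COX7A2, the liver-type isoform of its subunit, read 6.47 and 6.35 without Doxy and 7.02 and 7.66 with it (0.92, adjusted p = 0.0552 in limma), and COX4I1, the common isoform of subunit 4, read 6.83 and 6.40 against 7.44 and 7.31 (0.76, adjusted p = 0.0622 in limma). COX6B1 (6.88 and 6.83 against 7.38 and 7.75, difference 0.71), COX5A (0.60), NDUFA4 (7.18 and 6.96 against 7.38 and 7.72, difference 0.48), COX5B (0.46) and COX6C (0.36) were not called. NDUFA4 carries a complex I symbol and was counted with complex IV, of which it is a subunit.

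The paralogues of these subunits, most of them known from particular tissues, gave no calls. Of 8, 0 were called by limma and 0 had an unadjusted p under 0.05. Both Doxy arrays were above for 1 and below for 3, and the median difference was -0.17. COX7A1, the muscle isoform, read 3.46 and 3.0 without Doxy and 3.71 and 3.65 with Doxy (0.45, adjusted p = 0.237 in limma) and was the one above. COX6B2 of testis read 2.41 and 2.67 against 2.23 and 2.17 (-0.34), COX7B2, another testis isoform, 2.76 and 2.88 against 2.69 and 2.55 (-0.20), and COXFA4L2, a relative of NDUFA4 known as hypoxia-induced, 5.06 and 4.82 against 4.67 and 4.64 (-0.28). These 3 had Doxy arrays below both No Doxy arrays. COX4I2 of lung read 3.31 and 3.57 against 3.59 and 3.34 (0.02), COX6A2 of heart and muscle 5.06 and 5.04 against 5.51 and 4.81 (0.11), and COX8C of testis 3.64 and 3.52 against 3.60 and 3.28 (-0.14), each with overlapping groups. COX7A2L, which helps to join complexes III and IV, read 10.74 and 10.62 against 10.66 and 10.25 (-0.22), also with overlap. Of the 8 paralogues, 6 were among the dimmer genes, against 5 of the other 74 subunit genes. The difference between both kinds of subunit was not tested. With the dimmest probe sets left out, 6 paralogues kept a value and their median was 0.08, and without Doxy replicate 2 it was 2.9e-03, with 4 of 8 above 0.

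**Figure D3:**
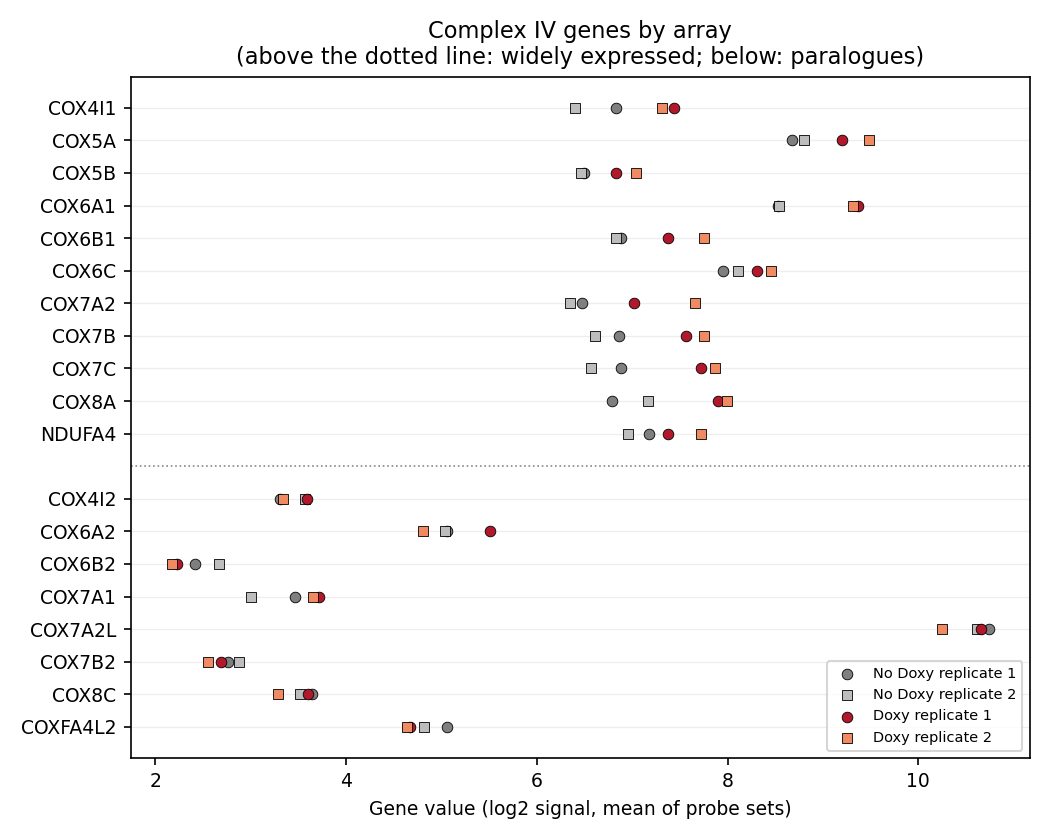
Gene values (mean log2 signal) of the 19 complex IV genes are plotted for each array, with the 11 subunits grouped as widely expressed above the dotted line and the 8 paralogues, COX7A2L included, below it. Both Doxy points lie to the right of both No Doxy points in all 11 genes above the line and in 1 below it, COX7A1.

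Complex V, ATP synthase, had 0 called genes of 16 in limma, with 5 higher at an unadjusted p under 0.05, a median of 0.35 and 9 genes above in both Doxy arrays. The 5 subunits of the catalytic F1 head were above in both Doxy arrays in 5 of 5 cases. ATP5F1C, the γ subunit of the rotor, read 8.39 and 8.10 without Doxy and 8.83 and 9.24 with it (0.79, standard error 0.21, adjusted p = 0.0622 in limma). The catalytic subunit ATP5F1B differed by 0.26 and its partner ATP5F1A by 0.44, from 10.27 on both No Doxy arrays to 10.68 and 10.72. ATP5MF, the f subunit of the membrane part, read 6.76 and 6.85 against 7.39 and 7.81. In the peripheral stalk, ATP5PF, coupling factor 6, read 6.52 and 6.27 against 6.69 and 7.19 (0.55, adjusted p = 0.182 in limma). ATP5PD of the same stalk read lower on both Doxy arrays, 9.53 and 9.42 against 9.12 and 9.35 (-0.24, adjusted p = 0.509 in limma).

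ATP5MC1, ATP5MC2 and ATP5MC3, the 3 genes for the c ring of the rotor, encode the same mature protein. ATP5MC1 read 6.58 and 6.05 without Doxy and 6.47 and 7.08 with Doxy (0.46). ATP5MC2 read 9.30 and 8.97 against 9.53 and 9.37 (0.32), and ATP5MC3 8.11 and 7.61 against 8.04 and 8.33 (0.33). Groups overlapped for ATP5MC1 and ATP5MC3, and none of the 3 was called (adjusted p from 0.363 to 0.450 in limma). Of the remaining genes ATP5ME (0.50), ATP5PO (0.47), ATP5F1E (0.37), ATP5PB (0.23), ATP5F1D (0.19), ATP5MGL (0.03) and ATP5MG (-0.04) were not called.

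Probe sets were also mostly higher with Doxy. Of the 641 probe sets of the 82 genes, 351 (54.8%) were above in both Doxy arrays, against 26.4% of all probe sets, and 42 (6.55%) were below, against 19.0%. By complex the share above was 55.4% in I, 31.2% in II, 61.3% in III, 52.6% in IV and 57.6% in V. All probe sets of NDUFAB1 (5 of 5), NDUFA1 (4 of 4), NDUFB5 (9 of 9), NDUFC1 (5 of 5), COX7C (4 of 4) and COX8A (6 of 6) were above in both Doxy arrays. COX6A1 had 7 of 8 above and COX7B 5 of 6. The probe sets of COX6A1 fall in 2 separate runs of numbers, 2905378 to 2905381 and 3434364 to 3434368. COX6A1 is on chromosome 12, and the second run lies between the numbers of NDUFA9 (3401879) and NDUFA12 (3466302), also on chromosome 12. The first run lies between the numbers of NDUFA2 on chromosome 5 (2878449) and COX7A2 on chromosome 6 (2961302). Probe set positions were not given, and whether both runs read the same locus was not analysed. Within NDUFA1 the differences ran from 0.34 to 2.36, and within NDUFAB1 from 0.93 to 1.29. Probe sets of a gene share its RNA and the arrays and are not independent readings.

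UQCR11 was the only 1 of the 82 subunit genes called by limma's diffSplice for unequal probe sets (adjusted p = 0.0339), where 2.46% of all genes were called. At an unadjusted p under 0.05 in diffSplice lay 6 subunit genes and 2237 of all 16634 genes. Of the 7 probe sets of UQCR11, 5 were above in both Doxy arrays. Probe set 3845359 read 4.50 and 1.57 without Doxy and 6.94 and 7.15 with Doxy, a difference of 4.01, and probe set 3845354 read 1.67 and 1.90 against 3.70 and 4.40 (2.27). The No Doxy arrays of 3845359 were far apart, while both were well below the Doxy arrays. The readings of 1.57, 1.67 and 1.90 were near the low end of the arrays, where 8.12% of probe set values lay at or below the highest of them, so the size of these differences is not exact. Probe set 3845353 read 5.71 and 4.80 against 4.51 and 4.49 (-0.76), and 3845363 read 5.58 and 6.01 against 5.76 and 5.73 (-0.05), so that the probe sets of the gene did not share a direction. The other 3 differed by 1.32 to 2.02. The call was lost with the dimmest probe sets left out (adjusted p = 0.0578), with a replicate block (0.103) and without either Doxy array (1.00 for each). Without No Doxy replicate 1, 9 subunit genes were called for unequal probe sets, along with 4013 of all genes. Which exons the probe sets read was not analysed here.

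**Figure D4:**
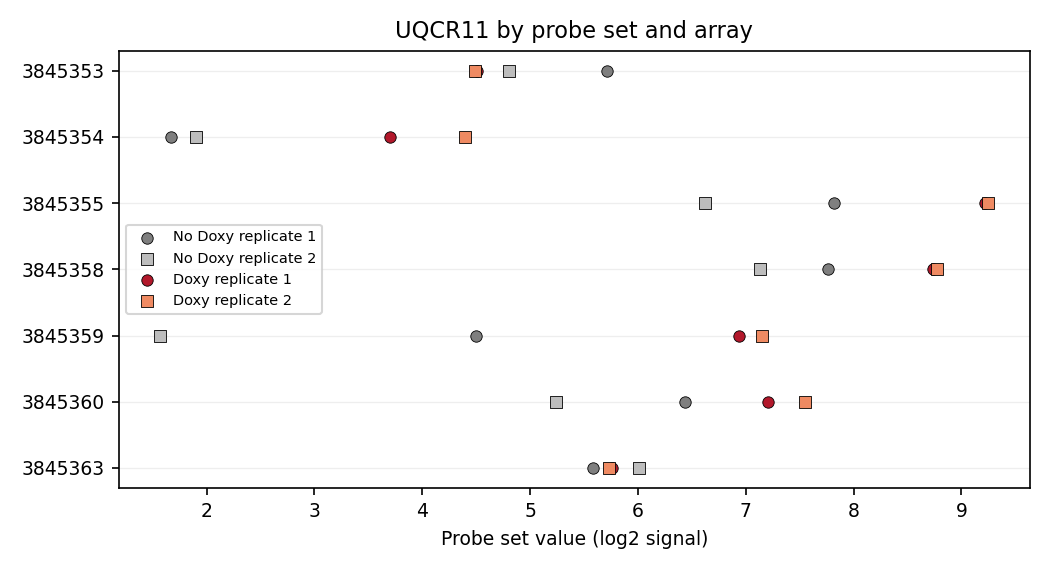
Log2 signals of the 7 UQCR11 probe sets are plotted for each array. Doxy points lie to the right of No Doxy points in 5 probe sets, most of all in 3845359 (1.57 and 4.50 against 6.94 and 7.15), overlap them in 3845363 and lie to their left in 3845353.

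Assembly factors and other genes that serve the chain gave some calls too, and their differences from the subunits were not tested. Of 50 measured assembly factors, 2 (4.0%, against 5.67% of all genes) were called higher and 1 lower. FOXRED1 of complex I (0.91) and SDHAF2, which helps to attach FAD to SDHA (0.95), were called higher, LYRM7, which helps to insert the Rieske protein into complex III, was called lower (-0.83), and the list's median was 0.19. LYRM7 read 4.69 and 4.34 without Doxy and 3.63 and 3.73 with it, and both Doxy arrays lay below. A further list held 15 measured genes with other symbols: subunits, electron carriers, genes of ubiquinone synthesis and ATP5IF1. Of these 15, 3 (20%) were called higher and 0 lower, with a median of 0.38. ETFDH, which passes electrons from fatty acid oxidation to ubiquinone, read 7.04 and 6.35 without Doxy and 8.67 and 8.84 with it (2.06, adjusted p = 0.00840 in limma). ATP5MJ, a small ATP synthase subunit listed under another symbol, and COQ9 of ubiquinone synthesis each differed by 0.71 (adjusted p = 0.0452 and 0.0448 in limma).

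The count of called subunits depended on single arrays, and so did that of all genes. Both counts of genes called higher fell whichever array was left out, which leaves a lone array in a group. The median difference of the subunits was then 0.50 without No Doxy replicate 1 and 0.32 without No Doxy replicate 2. It was 0.56 without Doxy replicate 1 and 0.33 without Doxy replicate 2. Over all genes these medians were 0.09, -0.01, 0.07 and 0.02. With the median of a gene's probe sets in place of their mean, UQCR11 and COX7B alone were called, and COX7B had a difference of 1.4.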

How the data were processed

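Total RNA of A2780/SRSF3si2 cells was read on 4 Affymetrix human exon arrays, grouped by the sample labels, and all 4 were used. The authors made the deposited log2 values with the RMA method of Expression Console, Affymetrix software, for core exons. For its version and the genome build nothing was given in the sources used here. Partek 6.6 is named in the submitters' notes. RMA adjusts background and normalizes arrays, which compresses low signals.

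Of 287329 probe sets, 261273 are listed with 1 symbol, 9155 with several and 16901 with none, and only the first were used. Of 16941 symbols, 2276 were updated by RefSeq's gene table (GRCh38.p14), including those of 18 subunit genes, and 119 were kept. Left out were 32 probe sets that subunit genes share with other symbols and 5 genes with a matching name that are no subunits. Gene values are means over at least 2 probe sets.

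All genes entered 1 limma fit of expression (limma 3.58.1, R 4.3.3), with 2 residual and 5.95 prior degrees of freedom and 0.0382 as prior variance. Unequal probe sets were tested by limma's diffSplice. Both used an adjusted p under 0.05 (Benjamini-Hochberg) and were tested on simulated data. Python 3.11.15 with matplotlib 3.10.9 drew the figures.

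Named genes are those called, the 3 with the largest difference in each complex, SDHA to SDHD and the paralogue sets. A further 23 subunit genes, NDUFB10, UQCRQ, ATP5PD and ATP5F1A with array values among them, were chosen for mention after their values were seen. Members, lists and this rule were chosen with earlier results of these data known. Alternatives were the median or Tukey's median polish as gene value, the dimmest 25% of probe sets left out, at least 4 probe sets, centred arrays, quantile normalization, the methods' t-test, a replicate block, diffSplice's Simes test and each array left out, where a lone array is taken to vary as much as the rest. Proteins and exon positions were not analysed here.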

Additional observations from a re-analysis of the deposited data

How the results depend on the processing

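The median difference of the subunits stayed above 0 in every setting tried (0.31 to 0.56, or 0.31 to 0.50 above the median of all genes), and 0 genes were called lower in any. The count called higher, 10 with all arrays, was 2 with the median of probe sets as gene value, 5 with median polish, 8 without the dimmest probe sets (of 80 genes), 12 with at least 4 probe sets (of 79), 20 with centred arrays, 12 with quantile normalization and 0 with the methods' t-test (11 at its unadjusted p under 0.05). It ran from 0 to 7 when 1 array was left out. The cause was not tested. Calls over all genes were 943 higher and 282 lower, 1169 and 658 with centred arrays, and 899 and 606 with quantile normalization. The share of all genes called higher was 0.986% with the median of probe sets and 3.28% with median polish. It was 3.87% without the dimmest probe sets, 7.12% with at least 4 probe sets and 0% with the methods' t-test. At an unadjusted p under 0.05 in that t-test lay 11 of the 82 subunit genes and 2328 of all 16634 genes. Of the 10 called genes, median polish kept 4 and leaving out the dimmest probe sets kept 5. COX6A1, COX7B, COX8A, NDUFC1 and UQCR11 were not called without the dimmest probe sets. At least 4 probe sets, centred arrays and quantile normalization each kept all 10.

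No source calls arrays of equal number a pair. Their deviations from the group means correlated with r = 0.127 across genes for 2 such pairs, which does not establish pairing. With a replicate block, 25 subunit genes were called higher and 0 for unequal probe sets. Over all genes, 1763 (10.6%) were then called higher and 205 for unequal probe sets.

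UQCR11, the 1 gene called for unequal probe sets, was not called without the dimmest probe sets (0 calls), and leaving out 1 array gave 0 to 9 such calls. Over all settings 22 of the 82 differences turned sign at least once, 0 of them of called genes, with at most 10 in 1 setting (without Doxy replicate 2). Among the genes given by name, ATP5MG was 0.19 with the median of probe sets and 0.10 with median polish, and ATP5MGL was -0.16 without the dimmest probe sets, -0.05 with centred arrays and -0.04 with quantile normalization. COX4I2 was -0.07 with the median of probe sets, -0.01 with median polish, -0.06 with centred arrays, -0.05 with quantile normalization and from -0.11 to 0.16 when 1 array was left out. COX6A2 was -0.03 with quantile normalization and COX7B2 0.19 without the dimmest probe sets, and SDHA was -1.9e-03 with the median of probe sets. When 1 array was left out, COX6A2 ran from -0.24 to 0.46, COX8C from -0.30 to 0.02, ATP5MG from -0.10 to 0.03, ATP5MGL from -0.12 to 0.17, UQCRH from -0.07 to 0.54, UQCRQ from -0.85 to 0.13, SDHA from -0.09 to 0.42, SDHC from -0.10 to 0.45 and SDHD from -0.12 to 0.35.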

Other observations

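Of 12 measured enzymes of the tricarboxylic acid cycle, SUCLG1, a subunit of succinyl-CoA ligase, was called higher with Doxy, where 5.67% of all genes were (6.28 and 6.39 to 7.05 and 7.21, difference 0.80, adjusted p = 0.0361 in limma), 0 were called lower and the median was 0.22. Of 15 regulators of mitochondrial biogenesis, 0 were called by limma for expression, with a median of 0.16. At an unadjusted p under 0.05 in limma lay 3 of the 15, and 3849 of all 16634 genes. GABPA, the DNA-binding part of GABP, had a difference of 0.66 (adjusted p = 0.0782), NRF1 0.50 (0.147) and YY1 0.19 (0.619). The coactivator PPARGC1A read 2.42 to 2.56 on all 4 arrays. PPRC1, a relative of it, was called for unequal probe sets by diffSplice (adjusted p = 0.000293).

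Of 20 mitochondrial import genes, the translocase subunit TIMM17A was called higher (6.84 and 6.88 to 7.84 and 8.07, difference 1.09) and the small chaperone TIMM8A lower (7.16 and 7.67 to 6.05 and 6.59, difference -1.10), 5.00% each, where 5.67% of all genes were called higher and 1.70% lower, and the median was 0.12. TIMM9, another small chaperone, was called for unequal probe sets (adjusted p = 0.0275 from diffSplice).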
